A study of Mus musculus with 6 samples.

Results

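Many probes on the array carry no gene name but the coordinates of a stretch of mouse genome and a strand, written as chromosome, start, end and F (forward) or R (reverse), on build mm9. These intervals are the array's content for intergenic noncoding RNA. The array held 16181 such probes of 60 bases for 4607 interval names at 3540 positions. Of these, 1067 positions had probes for both strands and 2473 for 1 strand. An interval was kept when at least 1 of its probes passed the scanner's background test, that is, was well above background, on each of the 3 arrays of a group. This left 2375 of the 4607 intervals (51.6%) and 4829 of the 16181 probes (29.8%). The members were therefore chosen on measured signal, and the detection shares below are a description with no test. The kept intervals fell into 1884 loci, since 855 of them overlapped another kept interval on the same strand, so neighbouring members can share RNA and even probe sequence.

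The RNA came from macrophages grown from C57BL/6 mouse bone marrow for a week in medium with L929-conditioned medium as the source of M-CSF, the growth factor of this lineage. The 3 control samples had a 6 h control treatment and the 3 others were stimulated with 100 µM ADP for 6 h. The design text speaks of separate experiments with different donors, but the labels do not tie replicate numbers to donors, so p-values measure the spread between these samples. Each sample was hybridised to 1 one-colour array, with controls 1 and 2 and ADP 1 on slide 1 and control 3 and ADP 2 and 3 on slide 2. Of 59305 non-control spots, 50.3 to 51.9% per array were well above background and 0 were saturated. Signals below are log2 processed intensities relative to the 75th percentile of the same array, so a value below 0 lies under that percentile. A difference is the ADP mean minus the control mean.

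Long intergenic noncoding RNAs are made by RNA polymerase II from DNA between protein-coding genes and are often spliced and polyadenylated like messenger RNA, but carry no long reading frame. Several are known to act in macrophages, where inflammatory signals switch noncoding transcripts together with nearby immune genes, and others are by-products of transcription that runs past the end of a gene or starts backwards from a promoter. ADP acts on cells through P2Y receptors, G protein-coupled receptors for extracellular nucleotides.

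The probes of the intervals on which the results turn are given 5′ to 3′ with their mm9 positions. The first 2 come from overlapping intervals on chromosome 6 (chr6:40718898-40718957 and chr6:40718909-40718968, forward strand), and capitals mark the 49 bases they share.
chr6:40699474-40719122_F: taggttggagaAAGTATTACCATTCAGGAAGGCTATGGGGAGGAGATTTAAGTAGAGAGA
chr6:40693617-40720167_F: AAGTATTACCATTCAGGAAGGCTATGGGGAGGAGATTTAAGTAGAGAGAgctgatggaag
The next 4 belong to the 3 largest higher differences and the largest lower difference among the leading members, at chr4:131907791-131907850, chr2:117819348-117819407, chr9:51910969-51911028 and chr10:93893522-93893581, each on the strand in its name and with no part in capitals.
chr4:131905739-131910814_R: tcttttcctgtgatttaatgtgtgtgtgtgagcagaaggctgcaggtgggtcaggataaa
chr2:117781720-117937595_R: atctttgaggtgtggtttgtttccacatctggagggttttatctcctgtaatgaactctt
chr9:51905865-51911474_R: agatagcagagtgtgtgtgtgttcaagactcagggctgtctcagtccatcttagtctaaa
chr10:93774693-93893616_F: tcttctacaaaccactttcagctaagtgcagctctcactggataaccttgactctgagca
One leading interval had a probe that ends at the interval's own end (chr11:51903219-51903278, forward strand) and holds the polyadenylation signal AATAAA, in capitals.
chr11:51854060-51903278_F: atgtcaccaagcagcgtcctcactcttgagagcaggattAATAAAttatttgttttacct
Both strands of a chromosome 12 interval, chosen for the same sign on both, were higher with ADP. The forward one passed through the ADP arrays alone. Their probes lie at chr12:33610244-33610303 (reverse) and chr12:33615353-33615412 (forward).
chr12:33606225-33638225_R: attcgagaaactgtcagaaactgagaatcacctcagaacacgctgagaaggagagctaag
chr12:33606225-33638225_F: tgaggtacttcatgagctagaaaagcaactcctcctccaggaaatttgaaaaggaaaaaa

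Interval probes were kept far less often than probes of named genes, of which 62.3% met the same rule. Per array, 32.4 to 34.7% of the interval probes were well above background. Of the kept intervals, 1890 had every kept probe above background on all 6 arrays, 110 passed through the control arrays alone, 91 through the ADP arrays alone, and 284 had probes that differed in this. Forward probes were kept in 28.0% and reverse probes in 31.7% of cases. By chromosome, the share ran from 21.5% of 736 probes on chromosome 9 to 37.2% of 899 on chromosome 17.

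Closeness to a named gene on the same strand went with detection. Of interval probes that overlapped a named probe, 78.6% of 70 were kept when both read the same strand and 23.3% of 30 when they read opposite strands. At gaps under 1 kb the shares were 66.9% and 25.9%, and at 1 to 5 kb they were 44.4% and 26.8%. Beyond that the strands came together, with 31.5% against 28.7% at 5 to 50 kb and 26.7% against 24.4% over 50 kb. Gaps are between probes, and no mm9 annotation was used, so a probe far from a gene's named probe can still lie inside that gene. Among 2366 kept intervals with a placed probe, the median gap from the interval's probe to the nearest named probe was 26.5 kb, 412 lay under 5 kb away, of which 51 overlapped one, and 802 lay over 50 kb away.

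**Figure D1:**
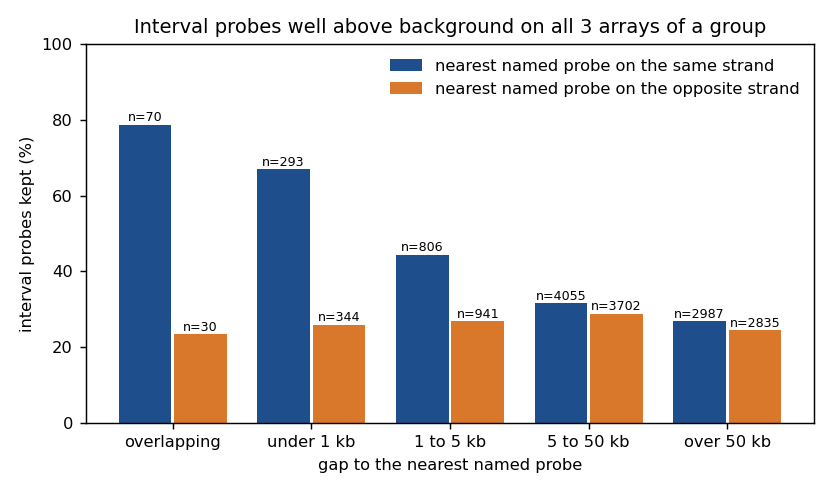
The plot gives the percentage of interval probes kept (vertical axis, 0 to 100) by the gap to the nearest named probe (horizontal axis), with blue bars for a neighbour on the same strand, orange bars for one on the opposite strand, and the number of probes above each bar. The blue bars fall from 78.6% to 26.7% with distance, while the orange bars stay between 23.3% and 28.7%.

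Kept probes were richer in G and C, at 46.1% ± 8.79 (SD, 4829 probes) against 43.3% ± 7.08 for interval probes that were not kept. Among probes with over 50% GC, 44.4% of 2927 were kept, against 28.0% of 8107 with 40 to 50% and 24.4% of 5147 with up to 40%. GC content was little related to the response, with r = -0.034 between GC and the ADP minus control difference over the 4829 kept probes, all of which come from the same 6 arrays. The hexamer AATAAA, searched on the probe's own strand, occurred in 4.39% of kept and 3.72% of other interval probes. Where an interval had 3 or more probes, all were kept in 383 of 3382 cases, some in 1498 and none in 1501, so probes of one interval often differed in detection. The differences of 2 kept probes of one interval had the same sign in 65.1% of 1178 intervals (r = 0.40). The strands of a position also differed: of 1067 positions with probes for both strands, 426 were kept on both, 198 on the forward strand alone, 227 on the reverse strand alone and 216 on neither. For the 101 pairs of probes that are exact reverse complements of each other, both were kept in 11, a single strand in 37 and neither in 53.

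No interval passed the limma test at an adjusted p of 0.05 after 6 h of ADP. The test ran over 19575 features, intervals and genes together, of which 0.0% passed. The smallest adjusted p among the intervals was 0.255, shared by 42 of them. At an unadjusted p of 0.05, 157 intervals (6.61%) lay higher with ADP, beside 6.87% of all features. In the other direction 92 intervals (3.87%) lay lower, beside 5.71% of all features. The higher side was thus near the background and the lower side under it. The groups did not overlap, with every ADP array above every control array, in 203 intervals (8.55%, against 10.2% of all features), and the reverse held in 140 (5.89%, against 9.28%). A difference of at least 2-fold was measured in 27 intervals on the higher side (1.14%, against 1.21%) and in 5 on the lower (0.211%, against 0.307%). Of these, 15 and 1 were above background on all 6 arrays. Among the 1890 intervals above background on all 6 arrays, where no member passed through 1 group alone, 113 (5.98%) lay higher and 53 (2.80%) lower at the same unadjusted p. No share of all features was taken under that restriction, so these 2 counts describe the intervals alone. With only probes above background on all 6 arrays kept, 138 of 2173 intervals lay higher (6.35%, against 6.51% of the features in that fit) and 71 lower (3.27%, against 5.75%). The median difference was -0.0068 over the intervals and 0.016 over all features. It was -0.0087 on the forward and -0.0037 on the reverse strand.

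The balance of these counts depended on scaling and on single arrays. Scaling on the array median gave 111 higher and 107 lower, and the unscaled intensities gave 143 and 35. Without control 1 the counts were 83 and 44, and without ADP 3 they were 81 and 36. Leaving out control 3 gave 146 lower intervals, and leaving out ADP 1 gave 194. No share of all features stands beside these counts, so whether the balance shifted in the intervals more than elsewhere was not tested.

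The slides were the main source of spread, and the first principal component of the interval signals, with 50.8% of the variance, separated them, while the second, with 22.1%, separated ADP from control. Within slide 1 and within slide 2, the interval differences had the same sign in 55.7% of intervals (r = 0.25, n = 2375), against 61.8% of all features (r = 0.47). A difference of over 0.5 was seen on both slides in the higher direction in 75 intervals (3.16%), in the lower in 38 (1.60%) and in opposite directions in 19. For all features the shares in the same direction were 3.26% and 2.31%. Opposite directions were seen in 91 of 19575 features, beside the 19 of 2375 intervals. With the slide as a block, limma again passed 0 intervals and 0.0% of all features, at a smallest adjusted p of 0.0712. Its unadjusted counts were 270 higher (11.4%, against 11.3%) and 176 lower (7.41%, against 12.7%). With the slide block and trended, robust variances, 88 intervals passed the adjusted threshold (3.71%, against 9.31% of all features), 57 as higher (2.4%, against 4.47%) and 31 as lower (1.31%, against 4.84%).

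**Figure D2:**
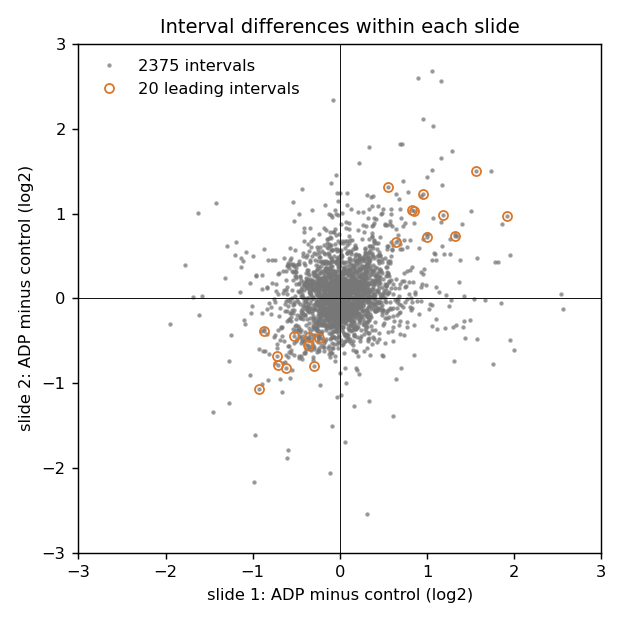
Each of the 2375 grey points is a kept interval, with its ADP minus control difference (log2) within slide 1 on the horizontal axis and within slide 2 on the vertical axis. Orange circles mark the 20 leading intervals, whose place in the upper right or lower left field follows from their choice by non-overlapping groups. The cloud as a whole has r = 0.25.

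The 20 leading intervals were the 10 higher and 10 lower with the smallest unadjusted p among those above background on all 6 arrays whose groups did not overlap. None passed in limma, where the adjusted p was 0.255 for the 10 higher and 0.255 to 0.285 for the 10 lower. Non-overlap fixes that both slides give them the same sign, so that sign says nothing about how well they repeat. The higher differences ran from 0.69 to 1.46 with standard errors of 0.14 to 0.32, from 0.55 to 1.91 within slide 1 and from 0.66 to 1.51 within slide 2. The lower ones ran from -0.39 to -0.84, from -0.24 to -0.93 within slide 1 and from -0.38 to -1.06 within slide 2. With the slide block and trended, robust variances, 9 of the higher and 3 of the lower passed. The 20 were chosen by p on the same arrays, so passing in this fit follows largely from the choice and adds no support. The normexp background correction, which pulls dim signals together, moved 12 of the 20 by over 1.5 times, to 0.22 at the smallest on the higher side and -0.19 on the lower.

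The largest difference among them belonged to chr4:131905739-131910814_R, whose only probe lies 154 bases from a probe of Snhg3, a host gene of small nucleolar RNAs, on the same strand. Its signal was -1.13, -0.74 and -0.42 on control arrays 1 to 3 and 0.98, 0.32 and 0.79 on ADP arrays 1 to 3. Every ADP array lay above every control array, by 1.46 ± 0.24 (SE, n = 3 and 3) or 2.75-fold, with an adjusted p of 0.255 in limma. Snhg3 itself stayed near its control level at a difference of 0.11 ± 0.10 (SE), and its 6 values lay between 3.81 and 4.04. The forward strand of the same interval, 567 bases from Snhg3, had 2 kept probes and a difference of 0.22 ± 0.28 (SE) with overlapping groups. The interval's difference was thus seen neither in the gene's value, which is that of its brightest probe, nor on the other strand. That probe need not be the one 154 bases away, and whether the 3 differ was not tested.

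On chromosome 9, chr9:51905865-51911474_R lies 12.5 kb from Zc3h12c, a gene of the regnase family of RNA-degrading proteins, on the same strand. Signals were -0.18, -0.31 and 0.18 on the control arrays and 1.07, 0.66 and 1.17 on the ADP arrays, a difference of 1.07 ± 0.19 (SE), adjusted p 0.255 in limma. Zc3h12c differed by 0.16 ± 0.15 (SE). A single probe of 5 was above background here, and the mean of all 5 without the filter was -0.60, so the value rests on 1 probe.

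The overlapping pair of intervals on chromosome 6 shared the sequence shown above, so its members are not independent. For chr6:40699474-40719122_F the control arrays gave -2.52, -2.36 and -2.68 and the ADP arrays -1.59, -1.81 and -1.50. The difference was 0.89 ± 0.14 (SE) for this interval and 0.84 ± 0.15 (SE) for chr6:40693617-40720167_F, both with an adjusted p of 0.255 in limma. The nearest named probe, 669 bases away and for the digestive enzyme gene Mgam, was not above background. The nearest measured gene, Clec5a, a C-type lectin receptor of myeloid cells, lay 194 kb away on the other strand and differed by -0.49 ± 0.26 (SE).

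The probe of chr2:117781720-117937595_R lay 133 kb from a probe of Thbs1, which encodes the secreted matrix protein thrombospondin-1, on the opposite strand. Its control signals were -4.12, -2.99 and -3.84, and its ADP signals were -2.00, -2.63 and -2.03. The difference was 1.43 ± 0.32 (SE) at an adjusted p of 0.255 in limma, and 0.57 with normexp. Thbs1 had the widest control spread of the genes named here, at 5.56, 6.22 and 2.62 on the control arrays and 7.03, 6.38 and 6.95 on the ADP arrays. Control 2 was the highest control and ADP 2 the lowest ADP array in both, while the lowest control was array 1 for the interval and array 3 for Thbs1.

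For other intervals on the higher side the nearest measured gene had a smaller difference. chr11:51854060-51903278_F differed by 1.00 ± 0.22 (SE), with the control arrays at -3.46, -2.98 and -3.64 and the ADP arrays at -2.27, -2.69 and -2.13. Its neighbour 32.6 kb away on the same strand, Ppp2ca, the catalytic subunit of protein phosphatase 2A, differed by 0.16 ± 0.11 (SE). chr6:136440100-136450050_F differed by 0.99 ± 0.20 (SE), chrX:91000651-91005855_R, 9.32 kb from the pyruvate dehydrogenase kinase gene Pdk3, by 0.87 ± 0.20 (SE), and chr6:117827499-117851478_F by 0.69 ± 0.14 (SE). In these 4 intervals the groups did not overlap and the adjusted p in limma was 0.255.

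**Figure D3:**
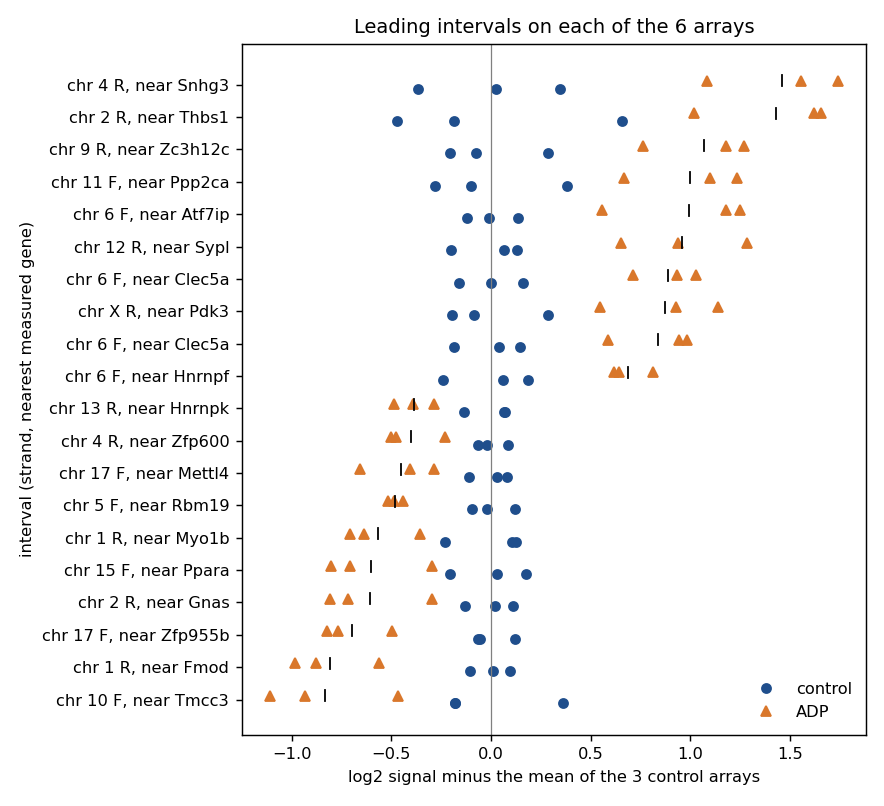
Each line is one of the 20 leading intervals, named by chromosome, strand and nearest measured gene. The horizontal axis is the log2 signal minus the mean of the 3 control arrays, with blue circles for control arrays, orange triangles for ADP arrays and a black tick at the ADP mean. In every line the triangles lie to one side of the circles, at means from 1.46 down to 0.69 in the upper lines and from -0.39 to -0.84 in the lower lines.

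Among the lower intervals the largest difference was that of chr10:93774693-93893616_F. It had 0.87, 0.86 and 1.41 on the control arrays and -0.06, 0.58 and 0.11 on the ADP arrays, a difference of -0.84 ± 0.23 (SE) at an adjusted p of 0.269 in limma. An overlapping interval, chr10:93819821-93976621_F, differed by -0.79 ± 0.24 (SE). Tmcc3, a gene for a transmembrane coiled-coil protein 157 kb away on the same strand, had 3.13, 3.07 and 3.53 on the control arrays and 2.04, 2.98 and 2.15 on the ADP arrays, a difference of -0.85 ± 0.27 (SE). In interval and gene alike, control 3 was the highest control and ADP 2 the highest ADP array.

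chr1:135956616-135957485_R, 12.6 kb from Fmod, the gene of the matrix proteoglycan fibromodulin, had -2.81, -2.90 and -3.01 on the control arrays and -3.47, -3.89 and -3.78 on the ADP arrays. The difference was -0.81 ± 0.14 (SE) with an adjusted p of 0.255 in limma, and -0.35 with normexp. chr17:33426488-33444184_F, 1.77 kb from the zinc finger gene Zfp955b on the same strand, differed by -0.70 ± 0.13 (SE), while the overlapping chr17:33425193-33449090_F differed by 0.18 ± 0.16 (SE) and the gene by 0.36 ± 0.46 (SE). chr2:174088550-174109425_R, with 4 kept probes, lay 9.42 kb from Gnasas1, the antisense noncoding transcript of the imprinted Gnas locus. It differed by -0.61 ± 0.16 (SE), and Gnas by 0.013 ± 0.17 (SE).

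The remaining lower members had smaller differences. chr15:85510625-85511265_F differed by -0.60 ± 0.18 (SE), while chr15:85412264-85549139_F, which encloses it and has 6 kept probes, differed by 0.056 ± 0.11 (SE). Within the same locus, chr15:85421725-85424047_F and chr15:85476512-85498105_F differed by -0.24 ± 0.39 (SE) and -0.27 ± 0.37 (SE), with overlapping groups. chr1:51753968-51803787_R differed by -0.57 ± 0.15 (SE), from 1 of 3 probes, whose unfiltered mean was 0.41. chr5:119945358-119962612_F, 177 kb from the nearest named probe, differed by -0.48 ± 0.11 (SE), with -2.40, -2.61 and -2.54 on the control arrays and -3.04, -3.01 and -2.96 on the ADP arrays. chr17:95149413-95174473_F, chr4:146233300-146260825_R and chr13:58481189-58488048_R differed by -0.45, -0.40 and -0.39. The adjusted p in limma of the leading members in this paragraph lay between 0.255 and 0.285.

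Among the 855 kept intervals that overlapped another on their strand, 16 loci had every kept member past an unadjusted p of 0.05 in limma. Members of a locus can share RNA and probe sequence, so their p-values are not independent and the count is a description. No share of the loci with several members or of all features stands beside it. Whether such loci were more frequent than single intervals past that p was not tested. The locus with most members, chosen after its values were seen, spans 139 kb of chromosome 5 (mm9, chr5:22801058-22939737). Its 5 kept reverse-strand intervals lay higher with ADP, but 1 passed through the ADP arrays alone and its sign was favoured by the filter. The smallest difference, 0.60 for chr5:22801058-22939737_R, also includes probes that passed through the ADP arrays alone. The nearest measured gene was Kmt2e, which encodes a chromatin-associated protein of the SET domain family, at a difference of -0.0032. For chr5:22890322-22939119_R the control arrays gave 0.38, 0.62 and -0.35 and the ADP arrays 1.79, 0.95 and 1.83, a difference of 1.30 ± 0.33 (SE). chr5:22928221-22939127_R gave 0.50, 1.09 and 0.32 on the control arrays and 1.37, 1.11 and 1.36 on the ADP arrays, a difference of 0.65 ± 0.21 (SE). In both, the highest control was array 2 and the lowest ADP array was ADP 2. chr5:22905597-22939154_R passed through the ADP arrays alone and was above background on at most 1 control array, so no size is given from the main fit. Its signals were -4.91, -4.50 and -5.74 on the control arrays and -3.75, -3.97 and -3.28 on the ADP arrays. Its difference with normexp was 0.28.

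The probes of that locus show how far its members repeat each other. Of 24 reverse-strand probes 15 were kept. The 11 that were above background on all 6 arrays differed by 0.013 to 1.36. The other 4, at 0.61 to 1.78, passed through the ADP arrays alone, with at most 1 control array above background, so the filter favoured a value above 0. Of the 9 that were not kept, 6 lay above and 3 below 0, from -0.33 to 1.05. The locus was itself picked for members past an unadjusted p of 0.05, so these signs are a description. On the forward strand 5 of 13 were kept, with 2 above and 3 below 0 and a median of -0.14. The same 17-base run occurs 2 times in each of 5 reverse probes, and no other probe on the array contains it. Capitals mark it in a probe from each of 2 intervals, at chr5:22890069-22890128 and chr5:22890352-22890411.
chr5:22887983-22939658_R: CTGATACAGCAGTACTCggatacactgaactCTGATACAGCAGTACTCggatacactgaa
chr5:22890322-22939119_R: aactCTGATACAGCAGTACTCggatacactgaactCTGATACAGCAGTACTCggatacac
Probes without the run that were above background on all 6 arrays include these at chr5:22845134-22845193 and chr5:22928643-22928702.
chr5:22801058-22939737_R: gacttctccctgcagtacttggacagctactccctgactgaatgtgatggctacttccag
chr5:22928221-22939127_R: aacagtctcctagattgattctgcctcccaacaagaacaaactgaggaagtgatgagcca
The 5 probes with the run differed by 1.25 to 1.36. The 6 without it that were above background on all 6 arrays differed by 0.013 to 0.97, with a median of 0.71.

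**Figure D4:**
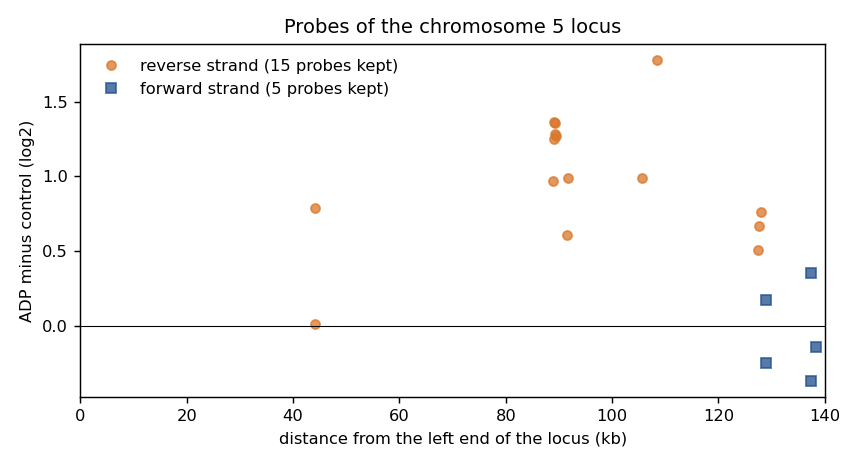
Each point is a kept probe of the chromosome 5 locus, with its distance from the left end of the locus (kb) on the horizontal axis and its ADP minus control difference (log2) on the vertical axis. The 15 reverse-strand probes (orange circles) lie above 0, from 0.013 to 1.78, 4 of them kept through the ADP arrays alone, and the 5 forward-strand probes (blue squares) scatter around 0.

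The strands of one position had weakly related differences. Over the 426 positions kept on both, the forward and reverse differences had r = 0.12 and the same sign in 55.2%. The 5 positions with the smallest p on both strands and the same sign were 2 higher and 3 lower. chr12:33606225-33638225 differed by 0.96 ± 0.19 (SE) on the reverse and 0.76 ± 0.24 (SE) on the forward strand. The forward probe was above background on all 3 ADP arrays and 2 control arrays, so the filter favoured a value above 0. chr6:54591416-54597566, 79 bases from Plekha8, a gene of glycolipid transfer, differed by 0.42 ± 0.15 (SE) on the forward strand with 5 probes and 0.41 ± 0.12 (SE) on the reverse with 3, and Plekha8 by 0.24 ± 0.12 (SE). chr13:58474388-58487288, near the RNA-binding protein gene Hnrnpk, differed by -0.51 ± 0.18 (SE) forward and -0.47 ± 0.16 (SE) reverse. Its dimmest forward probe was above background on all 3 control arrays but on 1 ADP array, and the forward difference was -0.15 with normexp. chr1:175705225-175717250 lies near the interferon-inducible gene Ifi204, and differed by -0.30 ± 0.11 (SE) forward and -0.40 ± 0.13 (SE) reverse. chr7:82902248-82955248, near Akap13, a kinase-anchoring protein gene, differed by -0.38 ± 0.12 (SE) forward and -0.63 ± 0.22 (SE) reverse, and its brightest forward probe taken alone by 0.083. Its only reverse probe was above background on all 3 control arrays and 1 ADP array, so the filter favoured a value below 0. The groups overlapped on that strand, and normexp gave -0.18. The adjusted p of all 10 lay between 0.255 and 0.340 in limma.

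For 11 intervals only a bound can be given, since they were well above background on all 3 arrays of one group and on none of the other. Bounds compare the brighter group with the lowest signal that was well above background on the dimmer arrays. They hold for the group means in the main processing alone. With ADP dim there were 6. On those means the largest bounds were 1.78-fold lower with ADP for chr13:24613384-24613726_R and 1.73-fold lower for chr17:84397891-84412748_F. The former rested on control 2, with -4.27, -2.25 and -4.28 on the control arrays and -4.36, -4.79 and -4.27 on the ADP arrays. Its groups overlapped, and with 1 array left out its difference came down to -0.20, so its bound is not firm. Its adjusted p was 0.589 in limma, while the latter had 0.255. With normexp their differences were -0.34 and -0.33. With the control dim there were 5, led by chr5:77188626-77219161_F at least 1.78-fold higher and chr17:80133213-80144417_F at least 1.62-fold higher with ADP, both with an adjusted p of 0.255 in limma. The last lies 37.7 kb from Cyp1b1, a cytochrome P450 gene, which differed by 0.27 ± 0.15 (SE).

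Intervals close to a gene on the same strand tended to share its direction. Over all 2366 placed intervals and 1173 nearest measured genes, the 2 differences had r = 0.09. Under 5 kb on the same strand the correlation was r = 0.43 (rho = 0.48, n = 229), with the same sign in 70.3%. It was r = 0.82 for the 38 whose probes overlapped a probe of the gene and r = 0.36 for the 191 that lay close by without overlap. A gene's difference came from its brightest probe, which need not be the one nearest to the interval. Under 5 kb on the opposite strand it was r = 0.31 (n = 134), with the same sign in 59.0%. From 5 to 50 kb the values were 0.10 on the same and 0.0086 on the opposite strand, and over 50 kb they were 0.10 and 0.0012. Both values of a pair come from the same arrays, so they share array effects. Within slide 1 the same-strand value under 5 kb was 0.24 and within slide 2 it was 0.38. With the interval read on one slide and the gene on the other it was 0.21 and 0.17, and without the filter on dim probes it was 0.24.

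**Figure D5:**
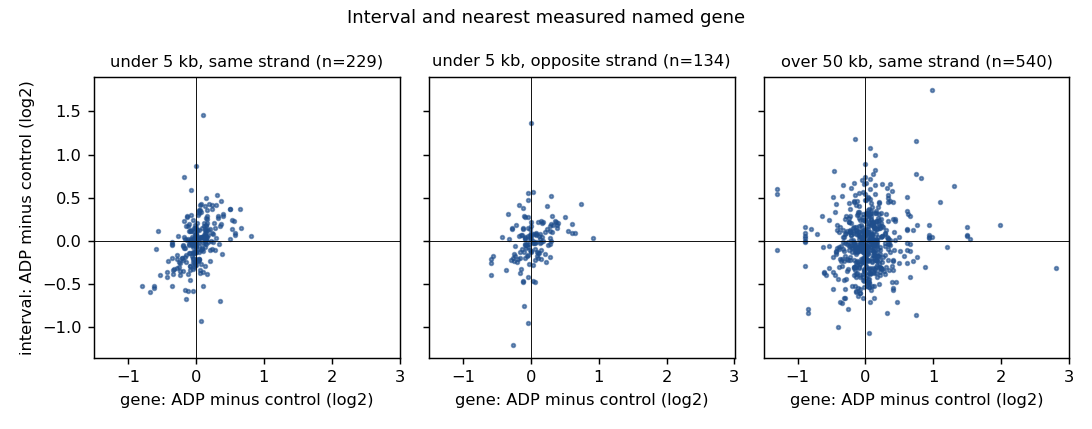
Points are kept intervals, with the ADP minus control difference (log2) of the nearest measured named gene on the horizontal axis and that of the interval on the vertical axis. The 229 pairs under 5 kb on the same strand (left) and the 134 on the opposite strand (middle) lean towards the diagonal, with r = 0.43 and 0.31, while the 540 same-strand pairs over 50 kb apart (right) do not, with r = 0.10.

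Intervals next to known response genes of macrophages gave small differences in either direction. From a list of 99 immediate-early, cytokine and feedback genes, drawn up with earlier results of these data known, 14 genes had 21 kept intervals whose nearest named probe was theirs at 4.81 to 49.4 kb. Their differences ran from -0.55 to 0.84 with a median of -0.037, and 9 of the 20 with a measured gene had its sign, beside 54.3% of all placed intervals. The groups did not overlap in 2 of the 21, both higher with ADP (9.52%, beside 10.2% of all features), so the share is near the background. One was chr11:53574182-53574644_R, 16.2 kb from Irf1, the interferon regulatory factor 1 gene, on the opposite strand, with -0.13, -0.12 and -0.26 on the control arrays and 1.14, 0.28 and 0.59 on the ADP arrays. It differed by 0.84 ± 0.22 (SE), with an adjusted p of 0.261 in limma, while Irf1 differed by -0.41 ± 0.16 (SE). The 3 other intervals near Irf1 differed by -0.031, -0.035 and -0.25. The other was chr15:61870759-61938796_F, 49.4 kb from Myc, with -4.24, -3.80 and -4.01 on the control arrays and -3.42, -3.50 and -3.37 on the ADP arrays. Its difference was 0.59 ± 0.14 (SE) with an adjusted p of 0.255 in limma, 0.18 with normexp and -0.093 over all its probes without the filter. Myc differed by -0.45 ± 0.27 (SE) and the noncoding Pvt1, the neighbour of Myc, by 0.0062 ± 0.12 (SE).

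Values of 3 listed genes and their nearest intervals are set side by side, with no test between them. Vegfa, the vascular growth factor gene, differed by 1.40 ± 0.34 (SE), and the interval 42.6 kb away, chr17:46204283-46221215_R, by -0.12 ± 0.28 (SE). Plau, the urokinase gene, differed by -1.02 ± 0.20 (SE), and chr14:21621875-21638625_R by -0.16 ± 0.46 (SE). Klf2, a transcription factor gene, differed by -0.68 ± 0.18 (SE), and chr8:74820025-74833350_F, on the same strand, by 0.17 ± 0.14 (SE). One interval chosen after its values were seen, chr13:15947521-15999246_F, lies 124 kb from Inhba, which encodes the activin A subunit, on the same strand. It had -5.13, -4.25 and -5.85 on the control arrays and -3.63, -2.71 and -3.63 on the ADP arrays. It passed the filter through the ADP arrays alone and was above background on at most 1 control array, so no size of difference is given. Inhba differed by 0.97 ± 0.34 (SE), and the nearer chr13:16050871-16065396_F by 0.047 ± 0.16 (SE).

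A few interval probes hold bases of microRNA hairpins, as matched to the hairpin sequences of RefSeq (GRCm38.p6), with a minimum of 30 shared bases. There were 16 such probe and hairpin pairs, and 4 of the probes were kept, printed here with the hairpin's bases in capitals (a probe read as antisense holds their reverse complement). Their mm9 positions are chr8:91548632-91548691, chr11:116938634-116938693, chr12:110981965-110982024 and chr15:85537022-85537081.
Mir8110, sense: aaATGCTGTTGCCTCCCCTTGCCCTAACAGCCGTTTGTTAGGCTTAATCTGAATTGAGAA
Mir6516, antisense: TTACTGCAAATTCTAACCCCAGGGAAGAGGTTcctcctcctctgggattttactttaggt
Mir410, sense: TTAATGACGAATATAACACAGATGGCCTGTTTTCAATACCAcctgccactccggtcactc
Mirlet7c-2, sense: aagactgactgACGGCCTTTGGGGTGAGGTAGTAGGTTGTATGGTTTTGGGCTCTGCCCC
Probes of this length do not read the mature microRNA, and the antisense one reads RNA of the strand opposite to its hairpin. The let-7c-2 probe differed by -0.21, and the whole of its interval, chr15:85412264-85549139_F, with 6 kept probes, by 0.056 ± 0.11 (SE). The Mir410 probe, from an imprinted microRNA cluster, was above background on 3 control and 2 ADP arrays and differed by -0.89, and its interval chr12:110973190-110987668_F by -0.57 ± 0.39 (SE) with overlapping groups. The Mir8110 probe differed by -0.016 and the Mir6516 probe by -0.49.

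Probes matching RefSeq promoters, the 250 bases before to 50 after a gene's start (GRCm38.p6), numbered 170, of which 62 (36.5%) were kept. The share was 32.5% of 80 in the sense and 37.2% of 86 in the antisense direction. At Tug1, a long noncoding RNA gene with a matching probe on each strand, chr11:3538125-3554450_F differed by 0.20 ± 0.11 (SE), and chr11:3548300-3549676_R on the strand of Tug1 by 0.35 ± 0.15 (SE).

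Named long noncoding RNA genes, measured by ordinary gene probes, stood beside the intervals for comparison. Of 59 on the list 37 were on the array and 28 were tested, with a median difference of -0.068. None passed in limma at an adjusted p of 0.05, and at an unadjusted p of 0.05, 1 lay higher (3.57%, beside 6.87% of all features) and 5 lower (17.9%, beside 5.71%). The 4 named next were chosen for the smallest p of the list in limma, so they are its extremes. Morrbid, which is known to control myeloid cell survival, differed by -0.61 ± 0.13 (SE), with -3.60, -3.52 and -3.33 on the control arrays and -3.95, -4.21 and -4.12 on the ADP arrays. Neat1, the scaffold of nuclear paraspeckles, had 5.78, 5.21 and 5.89 on the control arrays and 4.95, 5.21 and 4.97 on the ADP arrays, a difference of -0.58 ± 0.20 (SE) in which control 2 met the ADP range. Peg13, an imprinted transcript, differed by -0.52 ± 0.18 (SE), and Firre, a nuclear organising RNA, by 0.50 ± 0.16 (SE). Their adjusted p in limma lay between 0.255 and 0.308.

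Markers of the labelled cell type were present: all 9 macrophage genes were above background on all 6 arrays. The T cell markers Cd3e and Cd4 were also above background on all 6 arrays, with differences of 0.21 ± 0.39 (SE) and 0.27 ± 0.22 (SE), and the T cell list summed to 3.05 to 4.88 times the 75th percentile in control and 3.27 to 5.43 with ADP. The B cell marker Cd79a was tested and differed by 0.42 ± 0.40 (SE). The B cell marker Ms4a1, the T cell markers Cd3d and Cd8a, the mast cell markers Cpa3 and Mcpt4 and all 3 erythroid markers were above background on no array. All 4 fibroblast markers were tested, with a summed level of 12.97 to 14.8 times the 75th percentile in control and 13.1 to 15.2 with ADP. For 5 neutrophil markers the sum was 26.9 to 29.2 in control and 31.6 to 38.6 with ADP, without overlap. For 3 mast cell markers, of which 1 was tested, the sum was 0.0866 to 0.154 in control and 0.158 to 0.369 with ADP. The part of these markers in the interval differences was not tested.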

How the data were processed

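Total RNA of 6 macrophage samples, 3 control and 3 with ADP, was measured on one-colour Agilent arrays. Per the file headers, Agilent Feature Extraction 10.7.1.1 (named in the submitters' processing notes too) produced the intensity values the authors deposited, with background subtracted within the array and no scaling between arrays. The series' value table held the same intensity, within 0.001 log2 for 100% of probes, per the deposited files, with column medians of 18.7 to 22.7.

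Here control spots and outlier flags were left out, spots of a probe averaged, and log2 intensities taken relative to each array's 75th percentile. Kept probes of one interval and strand were averaged, and other genes were represented by their brightest probe. Groups came from the sample titles. A linear model from limma 3.58.1, with eBayes moderation in R 4.3.3, was fitted over 19575 features, two-sided, with Benjamini-Hochberg adjustment at 0.05, and was tested on simulated data. An exact permutation of 3 against 3 arrays cannot go below p = 0.1. Distances are gaps between probes in the files' mm9 coordinates. Names were updated through a RefSeq table of GRCm38.p6. Named intervals were, by rule, the 10 higher and 10 lower with the smallest p among those above background on all arrays whose groups do not overlap, up to 5 per direction with a bound, 5 positions with both strands, and neighbours of listed response genes under 50 kb. The 4 listed noncoding RNAs named were those with the smallest p. Members, rule and lists were chosen with earlier results of these data known. Alternatives covered background correction, scaling, filter, probe choice, variance model, slide, replicate number and leaving out each array.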

Additional observations from a re-analysis of the deposited data

How the results depend on the processing

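No interval passed an adjusted p of 0.05 in limma under any alternative but 1: with the slide block and trended, robust variances 88 passed. At an unadjusted p of 0.05 the higher and lower counts were 91 and 31 with normexp and 270 and 176 with the slide block, and the lower count was 35 on the unscaled value table and 54 with trended, robust variances. Leaving out 1 array gave 81 to 196 higher and 36 to 194 lower. Except for the slide block, no share of all features stands beside these or the replicate block counts, so they describe the intervals alone. Whether the replicate numbers pair the samples could not be told. Deviations of same-numbered arrays correlated at 0.44, -0.41 and 0.43, but the slide was not removed first. The arrays numbered 1 shared a slide, as did those numbered 3, while those numbered 2 lay on different slides. With the replicate block 0 intervals passed, 175 lay higher and 126 lower, and no call changed. The correlation with the nearest gene over all distances was 0.055 within slide 1, and 0.056 to 0.10 with 1 array left out. On the same strand under 5 kb it was 0.24 without the filter, 0.38 with the brightest probe, 0.39 with the slide block, 0.24 and 0.38 within slides 1 and 2, 0.47 with any probe as the neighbour, and 0.34 to 0.42 with 1 array left out. Of 20 leading intervals 2 signs turned, both without the filter: chr9:51905865-51911474_R to -0.60 and chr1:51753968-51803787_R to 0.41, where the added probes are the dim ones. The same setting gave -0.016 for chr4:129488462-129516410_F, 0.14 for chr11:53592946-53637922_F, 0.065 for chr11:117835849-117842574_F, -0.093 for chr15:61870759-61938796_F and 0.16 for chr15:101084597-101095097_F. The brightest probe gave 0.083 for chr7:82902248-82955248_F and 0.015 for chr8:87504644-87513694_R. The slide block, with either variance model, gave 0.24 for chr11:53592946-53637922_F, 0.017 for chr12:56564855-56565310_R, 0.20 for chr15:101084597-101095097_F and 0.060 for chr17:46204283-46221215_R. The unscaled value table gave 0.033, 0.028 and 0.047 for the first 3 of these, 0.014 for chr11:117835849-117842574_F and 0.029 for chr11:53596919-53672731_R. Within slide 1 signs turned to 0.53 for chr11:53592946-53637922_F, 0.27 for chr11:53592946-53637922_R, 0.13 for chr11:53596919-53672731_R, 0.36 for chr12:56564855-56565310_R, 0.45 for chr15:101084597-101095097_F, 0.40 for chr17:46204283-46221215_R and 0.14 for chr4:55465247-55494547_R. Within slide 2 they turned to 0.14 for chr11:117768049-117807949_R, -0.048 for chr11:117792051-117811334_R, 0.61 for chr14:21621875-21638625_R, -0.020 for chr15:101088974-101089576_R, 0.23 for chr17:26679595-26688270_R and -0.053 for chr4:94719930-94825776_F. With 1 array left out the ranges that crossed 0 were -0.40 to 0.18 for chr11:53592946-53637922_F, -0.28 to 0.11 for chr11:117768049-117807949_R, -0.26 to 0.15 for chr11:117835849-117842574_F, -0.11 to 0.088 for chr11:53596919-53672731_R, -0.20 to 0.059 for chr12:56564855-56565310_R, -0.48 to 0.34 for chr14:21621875-21638625_R, -0.32 to 0.20 for chr15:101084597-101095097_F, -0.26 to 0.022 for chr17:26679595-26688270_R, -0.41 to 0.038 for chr17:46204283-46221215_R and -0.021 to 0.14 for chr4:94719930-94825776_F. The cause of these turns was not tested. Dim intervals limit precision: the median size of a difference was 0.183, and 0.0934 with normexp.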
